A study of Mus musculus with 8 samples.

Results

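The aquaporins are membrane channels that let water, and in some members glycerol and other small solutes, cross cell membranes along their gradients. Their genes were taken by symbol, and 7 of the 24940 genes in the table were examined: Aqp1, Aqp3, Aqp4, Aqp7, Aqp8, Aqp9 and Aqp11. Of these, 6 had enough reads to be among the 12340 genes tested. Liver RNA was sequenced from 8 male C57BL/6 mice, 4 labelled FXRKO and 4 labelled BCL6LKOFXRKO, the first group standing as the control of the second. FXRKO mice carried floxed Bcl6 alleles with no Cre on a homozygous Fxr knock-out, and BCL6LKOFXRKO mice carried Alb-Cre in addition. Both groups are thus labelled as lacking the bile acid receptor FXR, and livers with intact Fxr were not analysed here. The albumin promoter that drives Cre is used to target hepatocytes, and whether Bcl6 was recombined in other liver cells was not tested. Loss of Bcl6, the presence of Cre and the liver disease that the study describes in these mice cannot be told apart. The labels give no age, and the methods allow either free feeding or a fast of 4 hours. Each liver came from a differently numbered mouse, and p-values refer to the spread between these livers.

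Osmotic water flow into bile follows the bile acids and ions that hepatocytes and bile duct cells secrete. Hepatocytes hold Aqp8, in the membrane of the bile canaliculus and in intracellular vesicles, and Aqp9 on the side facing the blood, where it also takes up glycerol for the synthesis of glucose. Aqp1 is the water channel of red cells, many endothelia and bile duct cells. The family is commonly divided into water channels (Aqp1, Aqp4 and Aqp8 here), aquaglyceroporins that also pass glycerol (Aqp3, Aqp7 and Aqp9) and the intracellular, distantly related Aqp11.

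The deposited values were raw exon read counts per gene, with totals from 7586241 to 11839503 per liver. Levels are given as CPM, read counts divided by library sizes that had been scaled with the TMM method, and a floor of 3 counts stood at 0.272 to 0.375 CPM. This floor and the counting intervals below cover counting error only. Bcl6 was at 21.2 to 65.2 CPM in FXRKO and at 4.61 to 11.9 CPM in BCL6LKOFXRKO livers, so this targeted gene and the labels went the same way in all 8 livers. Nr1h4, the gene of FXR, was counted in both groups, at 59.96 ± 2.46 CPM in FXRKO and 43.5 ± 3.69 CPM in BCL6LKOFXRKO livers (SD, n = 4 each), and was called lower in the latter (adjusted p = 0.00497). Counts per gene do not show whether these reads fall in the deleted part, so they do not check the Fxr label. The 50 most counted genes took 29.8% to 31.2% of the counts in FXRKO and 40.7% to 44.1% in BCL6LKOFXRKO livers, and albumin alone took 4.04% to 5.16% and 11.9% to 13.2%. Of 8 hepatocyte markers, all were counted in every liver. 2 of them, Alb and Asgr1, were called higher in BCL6LKOFXRKO livers, and 2, Ttr and Tdo2, lower, beside 16.2% and 13.5% of all tested genes. The part of such shifts in the aquaporin values was not tested. As pieces of whole liver were sequenced, fewer cells of a type and less RNA per cell cannot be told apart.

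Sequence was taken for the promoters of the 3 aquaporins whose changes are described at greatest length below, so that the DNA just ahead of each start can be read beside its values. RefSeq start windows (GRCm38.p6, the build also called mm10) were used for 6 members, 8 windows in all. Aqp4 was left out of this search, so nothing below describes its promoter. The 250 bases before the deposited start are printed in lower case, 5′ to 3′ on the strand of the gene, and capitals mark a match to a searched motif.
Aqp8, chr7:123462044-123462293, plus strand: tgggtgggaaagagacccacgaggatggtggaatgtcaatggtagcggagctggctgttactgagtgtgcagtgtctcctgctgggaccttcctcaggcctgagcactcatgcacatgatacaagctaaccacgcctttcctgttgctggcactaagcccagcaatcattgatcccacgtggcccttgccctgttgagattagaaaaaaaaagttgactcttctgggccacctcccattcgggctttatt
Aqp7, chr4:41048137-41048386, minus strand: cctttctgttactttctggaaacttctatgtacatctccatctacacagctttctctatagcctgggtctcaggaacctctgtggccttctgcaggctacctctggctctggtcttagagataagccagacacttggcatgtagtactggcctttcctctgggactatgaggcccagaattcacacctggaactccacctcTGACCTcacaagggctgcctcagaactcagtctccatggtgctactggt
Aqp9, chr9:71163290-71163539, minus strand: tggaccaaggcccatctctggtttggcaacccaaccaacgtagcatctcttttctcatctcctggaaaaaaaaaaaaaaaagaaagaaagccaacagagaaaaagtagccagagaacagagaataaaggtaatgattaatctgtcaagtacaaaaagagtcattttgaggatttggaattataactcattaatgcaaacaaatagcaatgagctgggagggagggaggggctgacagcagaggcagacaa
8 motifs were searched on both strands in all 8 windows. No window held the core bound by STAT factors and BCL6, TTCNNNGAA, which 7.02% of 32851 promoter windows of the same length held. There was likewise no FXR inverted repeat (the hexamer AGGTCA and its reverse complement with 1 base between them, in 0.00609% of windows), no PPAR direct repeat (AGGTCA repeated on the same strand after 1 base, in 0.0335%), no cAMP response element TGACGTCA (1.55%), no HNF1 core GTTAAT (6.43%) and no CCAAT box, CCAAT (33.8%). The nuclear receptor hexamer AGGTCA itself, which forms part of both repeats and occurred in 14% of windows, was found 49 bases before the Aqp7 start as its reverse complement TGACCT. It was also found 230 bases before the Aqp11 start, and 101 bases before a further RefSeq start of Aqp7, whose window overlaps the printed one and holds the printed match again, 223 bases before that start. The TATA box TATAAA (12.4% of windows) was found 29 bases before the Aqp3 start and in no other of these windows. The printed windows of Aqp8 and Aqp9 held none of the 8 motifs. A match or its absence describes these letters only.

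Comparing the 2 genotypes asks how the aquaporin mRNAs of an Fxr-deficient liver differ when hepatocyte Bcl6 is lost as well. Aqp8 and Aqp7 were called higher in BCL6LKOFXRKO livers and Aqp9 and Aqp4 lower, whereas Aqp1 and Aqp11 did not pass the threshold and Aqp3 was too rare to test. Calls required an adjusted p under 0.05 in the quasi-likelihood test of edgeR, corrected over all tested genes by the method of Benjamini and Hochberg. By this rule 16.2% of all tested genes were called higher and 13.5% lower, and the median log2 fold change of all tested genes was 0.01. Every BCL6LKOFXRKO liver lay above every FXRKO liver for 16.1% of tested genes and below for 15.2%, so calls in both directions were common in this comparison. Aqp7 reached 10 counts in no FXRKO liver and Aqp4 in no BCL6LKOFXRKO liver, so each passed the count filter only through the genotype in which it was higher and could hardly have been tested without differing. Aqp1, Aqp8, Aqp9 and Aqp11 had at least 10 counts in all 8 livers.

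**Figure D1:**
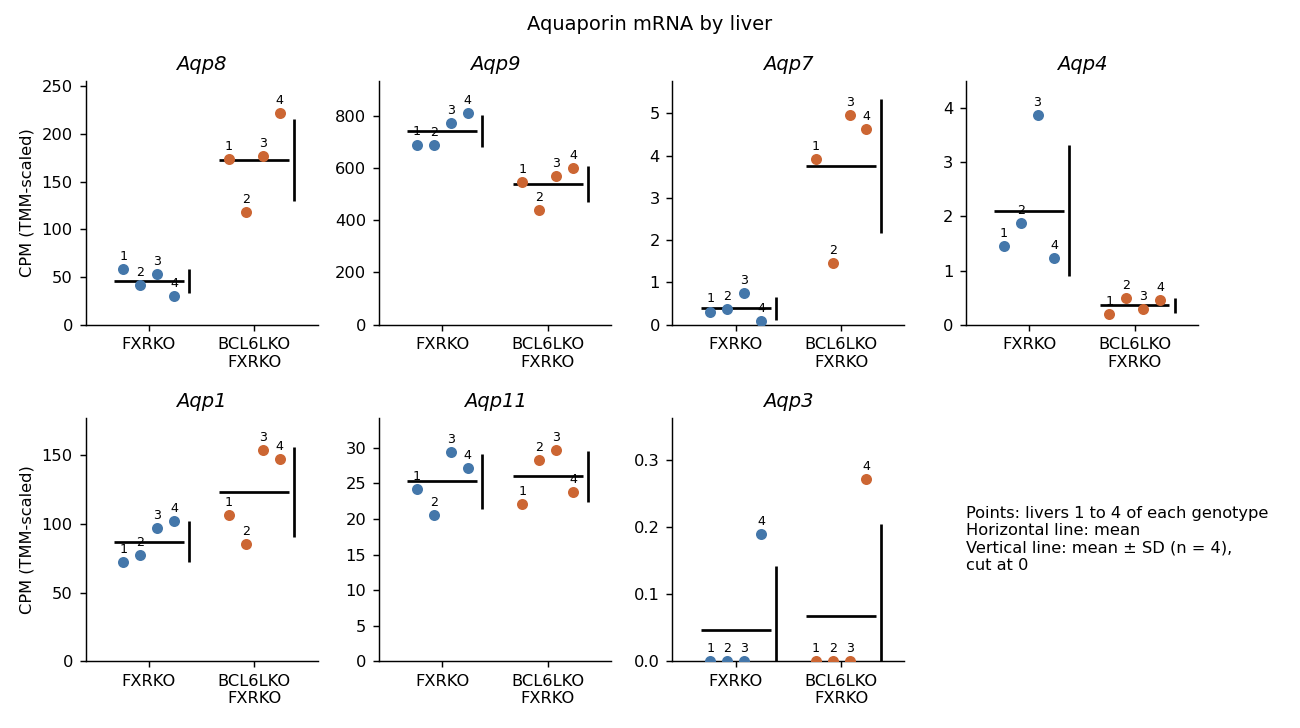
CPM of the 7 aquaporins in each liver, 1 panel per gene with its own axis from 0. Points are livers numbered 1 to 4 within each genotype, horizontal lines are means and vertical lines are mean ± SD (n = 4, cut at 0). The genotypes do not overlap for Aqp8, Aqp9, Aqp7 and Aqp4, and they overlap for Aqp1, Aqp11 and Aqp3.

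Among the water channels, Aqp8 (NM_001109045, chr7:123462294-123468003, plus strand, mm10) rose. It was at 58.8, 41.2, 52.9 and 29.8 CPM in FXRKO livers 1 to 4 and at 173, 118, 177 and 222 CPM in BCL6LKOFXRKO livers 1 to 4. The lowest BCL6LKOFXRKO liver, number 2, still lay above the highest FXRKO liver, number 1. Mean levels were 45.7 ± 12.9 and 173 ± 42.7 CPM (SD, n = 4 each). The rise was 3.78-fold, with a 95% interval of 2.66 to 5.37 and an adjusted p of 0.000109 from edgeR. The exact two-sided permutation test over the 70 orderings of the livers gave p = 0.0286, the smallest it can give. Between 315 and 565 reads per FXRKO liver and between 969 and 2444 per BCL6LKOFXRKO liver stood behind these levels, so counting error was small beside the spread between mice. The log2 fold change stayed between 1.76 and 2.06 in all 15 alternative fits and was called in each. The promoter window of Aqp8 printed above carried none of the searched motifs. Of the tested genes lying within 100000 bases of it, neither Lcmt1 (log2 fold change 0.43, adjusted p = 0.0798) nor Arhgap17 (0.30, adjusted p = 0.118) was called.

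Aqp1 (NM_007472, chr6:55336299-55348555, plus strand) was higher on average in BCL6LKOFXRKO livers but did not pass the threshold. Its levels were 72.0, 77.0, 97.2 and 102 CPM in FXRKO and 106, 85.3, 154 and 147 CPM in BCL6LKOFXRKO livers 1 to 4. BCL6LKOFXRKO liver 2 fell inside the FXRKO range, while the other 3 lay above it. The means of 87.1 ± 14.8 and 123 ± 32.9 CPM (SD, n = 4 each) gave a fold of 1.41 with a 95% interval of 1.07 to 1.87. The adjusted p was 0.0599 by edgeR and the exact permutation p 0.114. Without BCL6LKOFXRKO liver 2 the log2 fold change went from 0.50 to 0.63 and passed, with an adjusted p of 0.0129, and DESeq2 on all livers gave 0.50 with an adjusted p of 0.0495. Over all alternatives the adjusted p ran from 0.0129 to 0.186. Of the genes within 100000 bases of Aqp1 only Mindy4 was tested, and it was called lower (log2 fold change -0.87, adjusted p = 0.0333).

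Marker lists of cell types that carry Aqp1 were read beside it, against the 16.2% of all tested genes called higher. Their sums were higher on average in BCL6LKOFXRKO livers, but most single endothelial markers were not called. The summed level of 8 endothelial markers was 142 to 199 CPM in FXRKO and 207 to 261 CPM in BCL6LKOFXRKO livers, and 2 of the 8, Stab2 and Vwf, were called higher. Cdh5 and Lyve1, also endothelial, had log2 fold changes of -0.06 and -0.04 and were not called. The sum over 8 cholangiocyte markers was 58.7 to 85.3 and 92.2 to 157 CPM, with 2 of 5 tested markers, Spp1 and Krt19, called higher. Most of that sum was Spp1 (43.4 and 87.2 CPM on average), and Sox9 was not called, at a log2 fold change of -0.81 (adjusted p = 0.0773). Krt7, a keratin that defines bile duct cells, was counted 0 to 5 times per FXRKO liver and 8 to 17 times per BCL6LKOFXRKO liver, and Sctr 1 to 4 times in every liver. The 7 erythroid markers summed to 732 to 1082 and 969 to 1453 CPM, and 5 of 6 tested were called higher and 1, Alas2, lower. No defining marker of these 3 lists was at 0 in all livers. Lists of other cell types moved as well. Of 7 stellate cell markers 6 were called higher, with sums of 157 to 220 and 339 to 395 CPM, and of 8 macrophage markers 2 were, with sums of 297 to 388 and 377 to 643 CPM. BCL6LKOFXRKO liver 2, the lowest of its group for Aqp1, was also the lowest for the endothelial and erythroid sums but the highest for the cholangiocyte sum. The part of these cell types in the Aqp1 values was not tested.

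**Figure D2:**
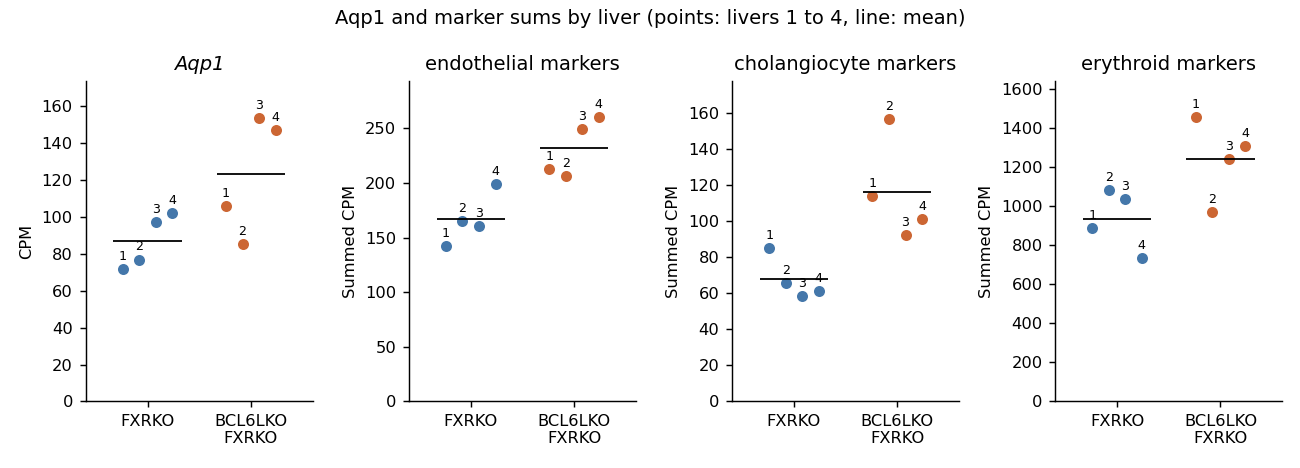
CPM of Aqp1 and summed CPM of the endothelial, cholangiocyte and erythroid marker lists in each liver. Points are livers numbered 1 to 4 within each genotype and lines are means. The endothelial and cholangiocyte sums do not overlap between genotypes, while Aqp1 and the erythroid sum overlap through BCL6LKOFXRKO liver 2.

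Aqp4 (NM_001308643, chr18:15389394-15410982, minus strand), known as the water channel of astrocytes, was rare in these livers and fell in the BCL6LKOFXRKO group. FXRKO livers 1 to 4 gave 14, 15, 36 and 13 reads, or 1.46, 1.87, 3.87 and 1.23 CPM, and BCL6LKOFXRKO livers gave 2, 4, 3 and 5 reads, or 0.201, 0.485, 0.292 and 0.454 CPM. All BCL6LKOFXRKO livers lay below all FXRKO livers, and FXRKO liver 3 stood highest. The means were 2.11 ± 1.204 and 0.358 ± 0.135 CPM (SD, n = 4 each). On the log2 scale the change was -2.52 with a standard error of 0.48 and an adjusted p of 0.00178 from edgeR. Summed over livers there were 78 against 14 reads, a level 5.86-fold lower in BCL6LKOFXRKO livers with a counting interval of 3.29 to 11.2. As BCL6LKOFXRKO livers sat near the floor, the size of the fall is imprecise. Aqp4 entered the test through FXRKO livers alone, so its call is no support for a difference beyond these counts, and with at least 10 counts required in every liver it was not tested. With no filter, over 17796 genes, the log2 fold change was -2.54 (adjusted p = 0.000437), and it ran from -2.72 to -2.05 over all alternatives that tested it.

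The most abundant aquaporin was the aquaglyceroporin Aqp9 (chr9:71110659-71163289, minus strand), and it fell modestly. The transcript kept for this gene in the table, NR_073483, has a RefSeq accession of the non-coding kind although Aqp9 codes for protein, and reads outside its exons were not counted. The levels were 690, 689, 771 and 811 CPM in FXRKO livers 1 to 4 and 547, 438, 568 and 599 CPM in BCL6LKOFXRKO livers 1 to 4. The groups did not overlap, and BCL6LKOFXRKO liver 2 was the lowest. Means were 740 ± 60.9 and 538 ± 70.04 CPM (SD, n = 4 each), a level 1.38-fold lower in BCL6LKOFXRKO livers. The log2 fold change was -0.46 (95% interval -0.73 to -0.19) with an adjusted p of 0.0158, and the exact permutation test gave 0.0286. Without FXRKO liver 4, its highest, the log2 fold change was -0.42 and the adjusted p 0.0504, just past the threshold. When libraries were scaled by total counts alone the log2 fold change was -0.62, but that scaling also moved the median of all genes by -0.16. Gm32511, the only tested gene within 100000 bases of Aqp9, was not called (log2 fold change 0.41, adjusted p = 0.240).

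Aqp7 (NM_007473, chr4:41033074-41048136, minus strand), the aquaglyceroporin through which adipocytes release glycerol, went the opposite way from Aqp9. It was counted 3, 3, 7 and 1 times in FXRKO livers 1 to 4, or 0.312, 0.375, 0.752 and 0.0946 CPM, and 39, 12, 51 and 51 times in BCL6LKOFXRKO livers 1 to 4, or 3.93, 1.46, 4.97 and 4.63 CPM. FXRKO livers thus stood near the floor, and every BCL6LKOFXRKO liver stood above them, with liver 2 the lowest. The means were 0.384 ± 0.274 and 3.75 ± 1.59 CPM (SD, n = 4 each), the log2 fold change was 3.29 (standard error 0.50) and the adjusted p 0.000326. The summed reads of 14 against 153 gave a 10.4-fold higher level with a counting interval of 6.00 to 19.4. Like Aqp4, Aqp7 entered the test through 1 genotype alone, here BCL6LKOFXRKO, and was not tested when every liver had to hold at least 10 counts. With no filter, over 17796 genes, the log2 fold change was 3.27 (adjusted p = 3.63e-05), and it ran from 2.94 to 3.85 over all alternatives that tested it. The window before its start, printed above, held the nuclear receptor hexamer shown in capitals.

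Markers of adipocytes were read beside Aqp7, and most had few or no reads. Plin1 and Lep, which coat lipid droplets and signal energy stores, were at 0 in all 8 livers, Adipoq had at most 1 read and Retn at most 3. The sum of the 5 adipocyte markers was 1.61 to 12.9 CPM in FXRKO and 0.0908 to 0.292 CPM in BCL6LKOFXRKO livers. The only marker of this list that was tested, Cfd, fell by 5.35 on the log2 scale (adjusted p = 0.00438). Most of the sum was Cfd, at 5.77 CPM in FXRKO and 0.129 CPM in BCL6LKOFXRKO livers on average. Cfd had at most 3 reads per BCL6LKOFXRKO liver, so it too passed the count filter through 1 genotype alone. The part of adipocytes in the Aqp7 values was not tested. Markers of kidney and gut epithelium, where several aquaporins are abundant, were also near the floor: Slc12a1 and Cdx2 were at 0 in every liver, and the 4 markers together reached at most 1.18 CPM.

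Aqp3 (NM_016689, chr4:41092724-41098183, minus strand), an aquaglyceroporin of kidney collecting duct and skin, lies 44588 bases from Aqp7 on the same strand but was almost uncounted. It had 2 reads in FXRKO liver 4, 3 reads in BCL6LKOFXRKO liver 4 and 0 in the other 6 livers, at or under the floor throughout, so no fold is given. The neighbouring genes tested around the pair, Nfx1, Chmp5, Bag1, Nol6, Ube2r2 and Ubap2, were not called, with adjusted p-values of 0.130 to 0.882. Aqp7 was thus the only called gene in this stretch of 100000 bases to either side.

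Aqp11 (NM_175105, chr7:97726379-97738247, minus strand), a channel of the endoplasmic reticulum whose loss in mice is known for kidney cysts, had nearly equal levels in both genotypes. It was at 24.1, 20.5, 29.3 and 27.2 CPM in FXRKO livers 1 to 4 and at 22.2, 28.3, 29.7 and 23.8 CPM in BCL6LKOFXRKO livers 1 to 4. The ranges overlapped over most of their length. Means were 25.3 ± 3.84 and 25.98 ± 3.59 CPM (SD, n = 4 each), and the log2 fold change was 0.04 (adjusted p = 0.873, exact permutation p = 0.771). Its 95% interval ran from 0.826- to 1.27-fold, so changes within these bounds are not excluded by these 4 livers per genotype. The sign of this small difference was not stable, at -0.12 with scaling by total counts alone and between -0.054 and 0.11 with livers left out in turn.

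**Figure D3:**
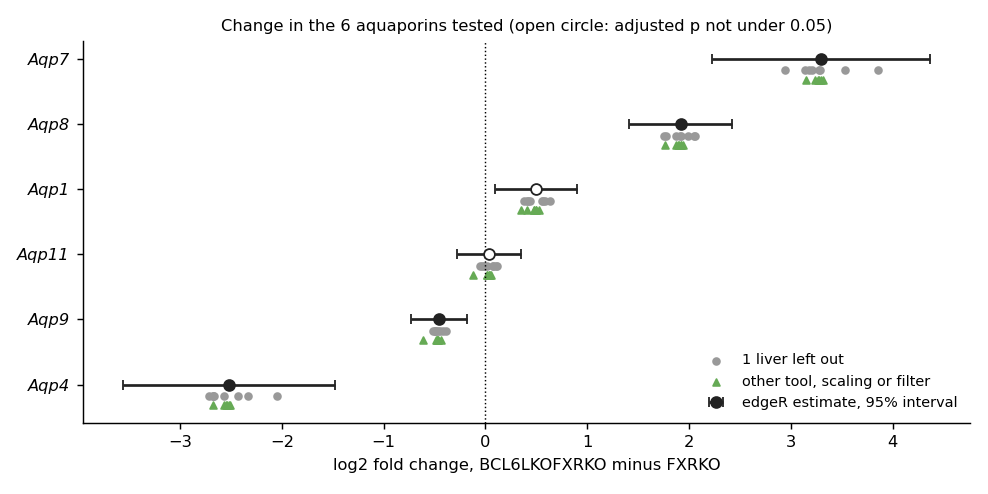
Log2 fold change (BCL6LKOFXRKO minus FXRKO) of the 6 tested aquaporins. Large circles are edgeR estimates with 95% intervals, filled where the adjusted p was under 0.05, small circles are fits with 1 liver left out, and triangles are other tools, scalings or filters. The alternatives of Aqp8 and Aqp9 stay on the side of their estimate, and those of Aqp11 fall on both sides of 0. Those of Aqp7 and Aqp4 also stay on 1 side, but these genes passed the count filter through 1 genotype alone. Their fits are thus no support for stability.

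The other 5 genes of the family in the table were also looked up. Aqp2, Aqp6 and Aqp12 had 0 reads in all 8 livers, Aqp5 had 1 read in FXRKO liver 4, and Mip, the lens channel, had 1 read in each of FXRKO livers 2 and 4. A count of 0 allows a level of up to the 3-count floor. Counts above this floor in every liver of both genotypes therefore came from Aqp1, Aqp8, Aqp9 and Aqp11. Aqp4 was above it in every FXRKO liver and Aqp7 in every BCL6LKOFXRKO liver, and each was near it in the other genotype. Aqp3, Aqp5 and Mip did not exceed it in any liver.

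Levels of different genes can be compared only per length, so RPKM (TMM-scaled CPM per kilobase of the deposited transcript) were used to order them. In FXRKO livers Aqp9 led with 265 RPKM, followed by Aqp1 with 31.6, Aqp8 with 31.0 and Aqp11 with 19.2 RPKM. The ranges of Aqp1 and Aqp8 overlapped, as did those of Aqp8 and Aqp11, whereas Aqp9 was 8.40-fold above the next and shared no values with it. Aqp4 at 0.405 RPKM, Aqp7 at 0.153 and Aqp3 at 0.0270 followed far below, each overlapping the next. In BCL6LKOFXRKO livers the order was Aqp9 with 193 RPKM, Aqp8 with 117, Aqp1 with 44.7, Aqp11 with 19.7, Aqp7 with 1.49, Aqp4 with 0.0688 and Aqp3 with 0.0388 RPKM. In this genotype only the last 2, Aqp4 and Aqp3, overlapped. Aqp8 thus stood apart above Aqp1 in BCL6LKOFXRKO but not in FXRKO livers, and Aqp7 and Aqp4 had exchanged places. Among all tested genes, Aqp8 lay above 85.4% in FXRKO and above 95.8% in BCL6LKOFXRKO livers, Aqp9 above 97.8% and 97.2%, and Aqp7 above 1.16% and 20.6%.

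The summed RPKM of the 7 genes was similar in size, at 348 ± 26.2 in FXRKO and 376 ± 63.8 in BCL6LKOFXRKO livers (SD, n = 4 each), with overlapping ranges of 319 to 371 and 290 to 439. Its composition differed in every liver. Aqp9 made up 74.5% to 78.8% of the sum in FXRKO and 48.9% to 54.2% in BCL6LKOFXRKO livers, and Aqp8 made up 5.47% to 12.0% and 27.5% to 34.3%. The share of Aqp1 was 7.87% to 10.04% and 10.4% to 13.8%, and that of Aqp11 was 4.88% to 6.01% and 4.12% to 7.41%. Each FXRKO liver held 6.20 to 14.4 times as much Aqp9 as Aqp8 RPKM, and each BCL6LKOFXRKO liver 1.43 to 1.97 times. These ratios were formed within a library and do not depend on its scaling. They restate the changes of Aqp8 and Aqp9 above and were not tested on their own.

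**Figure D4:**
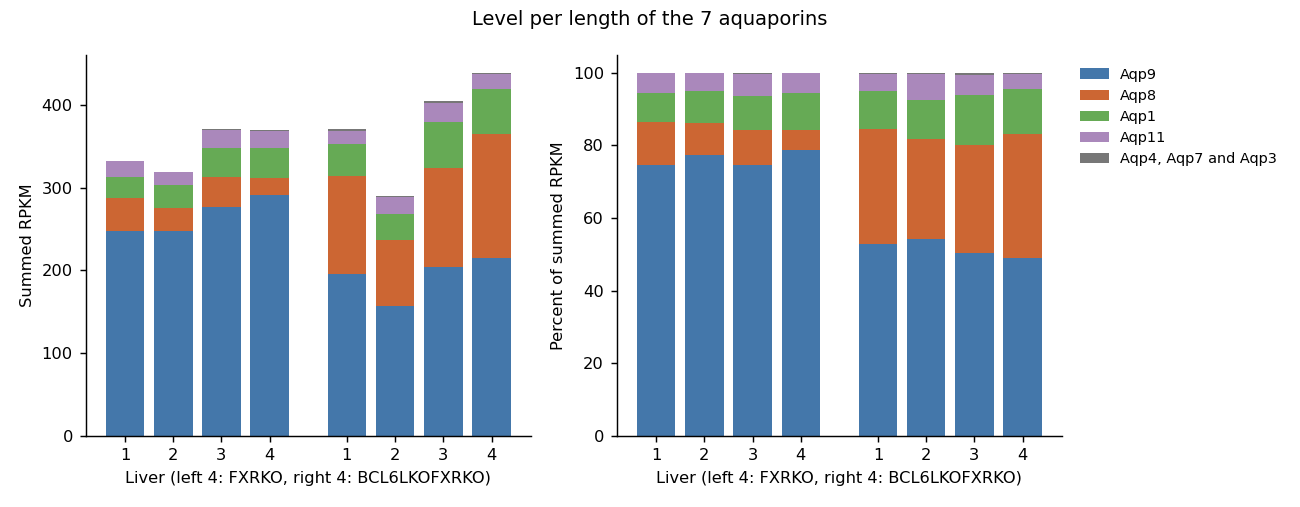
Summed RPKM of the 7 aquaporins in each liver, left, and the percent of that sum held by each gene, right, as stacked bars from 0 (FXRKO livers 1 to 4, then BCL6LKOFXRKO livers 1 to 4). The Aqp9 part narrows from 74.5% to 78.8% down to 48.9% to 54.2%, while the Aqp8 part widens from 5.47% to 12.0% up to 27.5% to 34.3%.

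The spread among the 4 BCL6LKOFXRKO livers was shared by several members. Liver 2 was the lowest of its group for Aqp1, Aqp7, Aqp8 and Aqp9, but the highest for Aqp4 and not the lowest for Aqp11. This library also had the highest share of counts in the 50 most counted genes, 44.1%. The Aqp4 rank of liver 2 rests on 4 reads, beside 5 in the larger library of liver 4. Among FXRKO livers, liver 4 was the highest for Aqp1 and Aqp9 and the lowest for Aqp4, Aqp7 and Aqp8. Its 13 reads of Aqp4 stood beside 14 in liver 1, and its 1 read of Aqp7 beside 3 in liver 1. These ranks of Aqp4 and Aqp7 lie within counting error. The part of cell makeup or depth in these differences was not tested.

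Osmotic water movement through aquaporins follows solute transport, so 21 genes for ion and bile acid transport into bile and for channel trafficking were examined. Of 18 tested, 3 were called higher and 5 lower in BCL6LKOFXRKO livers, beside 16.2% and 13.5% of all tested genes, and 10 were not called. The 3 higher calls are about the background share. Slc9a3, Cftr and Sctr had too few reads. The median log2 fold change of the 18 was -0.22, beside 0.01 over all tested genes. Genes called higher were Myo5b, a motor that carries recycling vesicles to the canaliculus (18.2 ± 1.92 to 37.2 ± 3.70 CPM, log2 fold change 1.03, adjusted p = 5.87e-05), Prkaca, the catalytic subunit of protein kinase A (64.1 ± 5.98 to 91.7 ± 11.7 CPM, 0.52, adjusted p = 0.00595), and Ano1, a chloride channel (2.53 ± 0.920 to 5.45 ± 1.27 CPM, 1.09, adjusted p = 0.00952). Protein kinase A is the kinase through which cAMP is known to bring Aqp8 vesicles to the canalicular membrane. Prkar2a, a further subunit of this kinase (log2 fold change -0.10, adjusted p = 0.624), and the trafficking gene Rab11a (-0.02, adjusted p = 0.872) were not called. A link of these genes to the Aqp8 values was not tested.

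On the lower side, Abcg2, an efflux pump, fell from 89.4 ± 4.91 to 43.7 ± 4.99 CPM (log2 fold change -1.03, adjusted p = 2.07e-05). Car14, a carbonic anhydrase, fell from 45.5 ± 6.44 to 23.0 ± 1.42 CPM (-0.98, adjusted p = 8.29e-05). Slc12a7, a potassium-chloride cotransporter, fell from 96.6 ± 7.71 to 63.8 ± 4.40 CPM (-0.60, adjusted p = 0.000977). The remaining 2 genes called lower were Abcb4, the phospholipid flippase of the canaliculus, and Slc12a2, a sodium-potassium-chloride cotransporter. Other transporters of the list were not called, among them Abcb11, the bile salt export pump (log2 fold change -0.42, adjusted p = 0.0607), and Abcc2 (0.09, adjusted p = 0.699). Car2, a further carbonic anhydrase, was not called either (0.64, adjusted p = 0.131).

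Glycerol handling was followed through 15 genes, because Aqp9 and Aqp7 pass glycerol. 14 were in the table and all 14 were tested, glycerol kinase being listed as Gk. 1 was called higher and 5 lower, beside 16.2% and 13.5% of all tested genes, 8 were not called, and the median log2 fold change was -0.29. Lpl, the lipase of vessel walls, rose from 14.6 ± 3.99 to 30.8 ± 6.53 CPM (log2 fold change 1.08, adjusted p = 0.00118). Lipc, hepatic lipase, fell from 142 ± 6.68 to 20.9 ± 9.05 CPM (-2.77, adjusted p = 3.06e-05). Lipe, hormone-sensitive lipase, fell from 25.8 ± 5.39 to 12.9 ± 1.82 CPM (-0.99, adjusted p = 0.000857). Gpd1, which oxidises glycerol 3-phosphate in the cytosol, fell by 0.48 on the log2 scale (adjusted p = 0.0120). Gk, the kinase that traps glycerol in the hepatocyte after entry through Aqp9, was not called, at 56.6 ± 5.15 and 46.5 ± 10.1 CPM (SD, n = 4 each, log2 fold change -0.29, adjusted p = 0.179). Both lists lay below the background median, and total-count scaling, which shifts all genes down, raised their lower calls to 8 and 10.

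**Figure D5:**
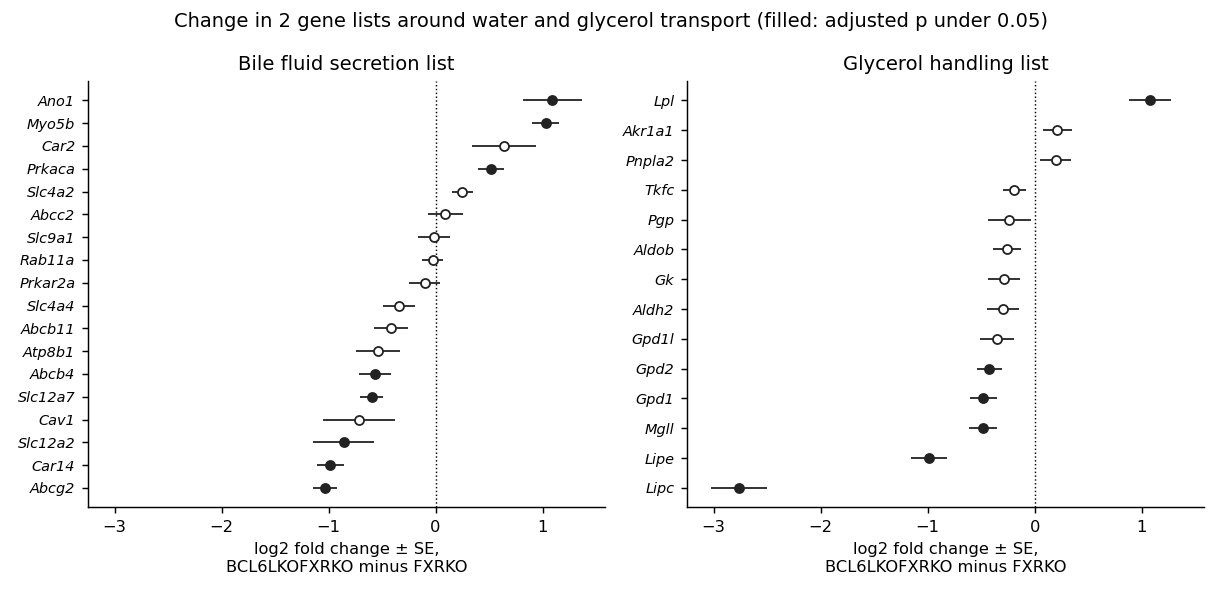
Log2 fold change (BCL6LKOFXRKO minus FXRKO) ± SE of the tested genes of the bile fluid secretion list, left, and the glycerol handling list, right. Filled circles have an adjusted p under 0.05. Of 18 and 14 genes, 3 and 1 were called higher and 5 and 5 lower.

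Finally, genes with the most similar pattern over the 8 livers were looked up among tested genes whose mean count was 50 or more. Similarity was the root mean square difference of log2 CPM after centring each gene, over livers that share their library and scaling. It is a description of these 8 libraries. As it was taken over both genotypes, a like change between them follows largely from how the genes were chosen. For Aqp8 the nearest were Samd4, with a difference of 0.182, and Lgals1, a galectin, with 0.183. Both were called higher, with log2 fold changes of 2.24 for Samd4 and 1.97 for Lgals1. For Aqp9 they were Sord, sorbitol dehydrogenase, with 0.0552 and Upb1, an enzyme of pyrimidine breakdown, with 0.0561, both called lower, by 0.49 and 0.41 on the log2 scale. Aqp1 was nearest to Fam102a (0.112) and Clec4g (0.117), the latter a lectin of sinusoidal endothelium that is also in the endothelial list, and neither was called. Aqp7 was nearest to Mgst3 (0.439) and Samd4 (0.454), and Aqp4 to Ttc39c (0.313) and the liver transcription factor Foxa1 (0.321). The larger differences for Aqp7 and Aqp4 go with their small counts. Aqp11 was nearest to Zfp263 (0.0762) and Scamp1 (0.0835), neither of them called.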

How the data were processed

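RNA-seq counts of livers from 4 FXRKO and 4 BCL6LKOFXRKO males were used. Single-end reads of 100 bp were aligned by the authors with STAR 2.5.2 (mm10, 1 location, no more than 4 mismatches). HOMER 4.10 then gave the deposited raw counts over the exons of 1 transcript per gene, with that transcript's length. The libraries were stranded, but the counting command names no strand; in GENCODE M21 no exon of another gene overlaps an exon of the 7 aquaporins. The authors used DESeq2.

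Counts were fitted across all genes in R 4.3.3 with edgeR 4.0.16 (filterByExpr, TMM, robust quasi-likelihood fit, Benjamini-Hochberg adjustment), using genotype only. Exact permutation tests were two-sided and used log2 of TMM-scaled CPM with a small constant added. The similarity search used log2 CPM with a prior count of 2. Alternatives were DESeq2 1.42.0, limma 3.58.1 (voom with quality weights), RLE factors, total counts alone, removal of the 50 most counted genes, no filter, a minimum of 10 counts in each liver, the study's fold threshold and each liver left out. Scripts were tested on simulated counts. The aquaporins and lists were chosen with earlier results of these data known. Named besides the 7 members were 5 other family genes, Bcl6, Nr1h4, the 3 genes of each list with the smallest adjusted p among calls in each direction, and the 2 most similar genes of each tested member. Other genes, such as markers, neighbours and Gk, were named after their values were seen.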

Additional observations from a re-analysis of the deposited data

How the results depend on the processing

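Of 88 fold changes of aquaporins recomputed under alternative settings, 81 kept their direction and their side of the threshold. These include all 14 of Aqp4 and all 14 of Aqp7. Both genes passed the count filter only through the genotype in which they were higher, so these fits are no support for stability. Between settings, 1 to 3 aquaporins were called higher (3 with DESeq2 and without BCL6LKOFXRKO liver 2, where Aqp1 joined), 3 to 4 and 4 to 8 genes of the bile fluid secretion list higher and lower, and 1 and 4 to 10 genes of the glycerol handling list. With at least 10 counts in every liver, Aqp7 and Aqp4 were not tested, and 1 aquaporin was called higher and 1 lower. Requiring an absolute log2 fold change above 0.5 left 1 called lower, Aqp4, because the change of Aqp9 is smaller. With livers left out in turn, 1 to 2 aquaporins were called lower, and 1 without FXRKO liver 4, where the log2 fold change of Aqp9 was -0.42 with an adjusted p of 0.0504. Over all livers left out it ran from -0.52 to -0.38. Aqp1 passed the threshold with DESeq2 (log2 fold change 0.50) and without BCL6LKOFXRKO liver 2 (0.63), and ranged from 0.38 to 0.63 with livers left out. Aqp11 reversed sign with total counts alone (-0.12) and without FXRKO liver 2 (-0.054), BCL6LKOFXRKO liver 2 (-0.015) or BCL6LKOFXRKO liver 3 (-0.034), and reached 0.11 at most. Total counts alone moved the median of all genes by -0.16, called 1404 genes higher and 2949 lower in place of 1994 and 1665, and raised the genes called lower to 8 in the bile fluid secretion list and 10 in the glycerol handling list. Apart from what construction shows, the cause of these shifts was not tested. No paired analysis was possible because the labels number mice singly and give no pairs between genotypes. Depth limits Aqp3, Aqp4 and Aqp7, whose reads per liver were at most 3, 36 and 51.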
